A study of Mus musculus with 8 samples.

Results

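Hepatocyte growth factor (HGF), its activating proteases, their inhibitors and the receptor MET, with the sister ligand and receptor MSP and RON, were followed in Apc-deleted intestinal organoids between day 7 and day 20 after tamoxifen. The 9 genes (Hgfac, Hgf, Met, Mst1, Mst1r, St14, Spint1, Spint2 and Hpn) were taken from a list of the pathway's ligands, proteases, inhibitors and receptors, out of 19057 genes with a named probe. Where a gene had several probes, 1 was chosen by its mean intensity across the 8 arrays, the brightest being kept. The list was drawn up with earlier results of these data known, so the adjusted p-values given for its members describe them and are not independent support.

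The organoids, 3-dimensional epithelial cultures grown from intestinal crypts, came from C57Bl mice aged 2 to 3 months. All carried the alleles Lgr5-EGFP-IRES-CreER and Apcflox/flox; Cre is made from the stem cell gene Lgr5, and the labels give no share of cells that lost Apc. Both groups received tamoxifen for 2 days and were then grown without the Wnt agonist R-Spondin1, which selects Apc-mutant organoids: the day 7 group (n = 4) for 5 days and the day 20 group (n = 4) for 18 days. Since both groups were deleted and no culture with intact Apc is among those compared, time after deletion, without R-Spondin1 and in culture cannot be told apart. Separate animals or cultures are not stated for the samples of a day, so the p-values rest on a spread between samples that may be technical.

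HGF and MSP (macrophage stimulating protein, encoded by Mst1) are secreted as single-chain precursors that signal only after a serine protease has cut them into 2 chains. HGF activator (Hgfac), matriptase (St14) and hepsin (Hpn) make that cut, and the membrane-anchored Kunitz inhibitors HAI-1 (Spint1) and HAI-2 (Spint2) restrain them. In the gut HGF comes mainly from mesenchymal cells, whereas MET and RON (Mst1r) lie on the epithelium. HGF activator is best known as a plasma protein made by the liver.

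Between the days, Hgfac rose 5.98-fold and Mst1r rose 1.51-fold, while neither ligand gene was measured clearly above background and the probe for Met lay at the background limit. The inhibitor genes Spint1 and Spint2 and the protease gene St14 were measured on all 8 arrays and their differences did not pass the test. Of the 9 genes, 8 passed the filter on dim probes and 2 of these were higher and 0 lower at day 20 (limma, Benjamini-Hochberg adjusted p under 0.05), against 4.85% of all 12466 genes tested, 2.51% higher and 2.33% lower. The day 7 and day 20 values did not overlap for 3 of the 8 genes (Hgfac, Mst1r and Spint1), against 13.1% of all genes tested. Hgfac and Mst1r were the 2 higher ones (6.27% of all genes) and Spint1 the lower one (6.84% of all genes). The median log2 difference was 0.06 over the 8 genes and 0.005 over all genes tested, and nothing particular to the list is read from these counts. In bulk RNA, fewer cells of a type and less RNA per cell cannot be told apart.

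Levels are log2 intensities, in which background lies near 6.7 and a value above 6.796 was called above background. The day 20 arrays fell into pairs: Xist, an RNA that female cells make from their silent X chromosome, lay below the limit on replicates 1 and 4 by its brightest probe (6.68 and 6.74). The probe read 10.29 and 10.41 on replicates 2 and 3 and 9.39 to 10.01 on the day 7 arrays. Xist signal was therefore not balanced between the days. Across tested genes replicates 1 and 4 correlated at 0.9917 and replicates 2 and 3 at 0.9905, against 0.9827 to 0.9846 between the pairs. The day 20 arrays may thus come from fewer separate sources than n = 4 implies, which was not tested. Day 7 replicate 2 stood apart from the other day 7 arrays (Pearson r across tested genes of 0.9725 to 0.9797, against 0.9891 to 0.9943 among the rest). Values for the 6 Xist-positive arrays alone are given for the genes that rose or fell where a call was lost, and for some others. These are the day 7 arrays and day 20 replicates 2 and 3, so a call lost there rests on fewer day 20 arrays.

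The promoters of the 2 genes that rose are shown because both genes moved in the same direction, and a hypoxia response core and a TCF/LEF core, the letters bound by the Wnt effectors, were looked for in them. Each sequence is the 250 bases before the annotated start, on the plus strand of mouse build GRCm38.p6, from RefSeq; capitals mark a TCF/LEF core, CTTTGA. RefSeq entries were matched by symbol for 8 of the 9 genes.
Hgfac, chr5:35041259-35041508: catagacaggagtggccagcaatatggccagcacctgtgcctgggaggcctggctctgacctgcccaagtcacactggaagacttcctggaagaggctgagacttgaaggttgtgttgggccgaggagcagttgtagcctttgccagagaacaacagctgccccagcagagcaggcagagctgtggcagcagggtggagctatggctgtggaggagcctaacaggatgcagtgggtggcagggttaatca
Mst1r, chr9:107906639-107906888: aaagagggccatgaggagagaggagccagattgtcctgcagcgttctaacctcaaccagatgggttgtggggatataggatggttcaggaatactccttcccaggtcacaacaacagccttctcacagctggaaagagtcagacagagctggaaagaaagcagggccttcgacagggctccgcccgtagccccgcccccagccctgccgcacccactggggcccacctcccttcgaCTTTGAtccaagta
Searched on both strands, CTTTGA occurred once before Mst1r, its first base 14 bases before the start, and did not occur in the Hgfac window. RefSeq holds a second Mst1r start, whose window, not shown, has neither motif. CTTTGA was present in 13.8% of all 32851 promoter windows of the same length. The hypoxia response core ACGTG, which can overlap its own reverse complement, was in neither window and in 16.6% of all windows. Windows of the other members were searched too and are not shown. Among these, ACGTG was in that of Met and in that of an Hpn start, and neither gene passed the test. A match of letters is a description and not a site of binding, and none in a window says nothing about the factor.

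Hgfac, encoding the secreted protease that cuts the HGF precursor, showed the greatest difference of the 9 genes. On the day 7 arrays its log2 intensity was 8.28, 8.51, 9.31 and 9.30, and on the day 20 arrays 11.24, 11.34, 11.72 and 11.42 (replicates 1 to 4). Every day 20 array lay above every day 7 array, and within day 7 replicates 1 and 2 were lower than replicates 3 and 4. Mean intensity went from 8.85 ± 0.53 to 11.43 ± 0.21 (SD, n = 4 for each day). Hgfac thus rose by 2.58 on the log2 scale (SE 0.25, 95% confidence interval 2.01 to 3.15, limma adjusted p = 0.00144), rank 4 by size among the rises of the 12466 genes tested. The rise was 2.68 among the 6 Xist-positive arrays (limma adjusted p = 0.0143) and 2.39 to 2.73 when any 1 array was left out. A single probe measured the gene, so no second probe checks it.

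**Figure D1:**
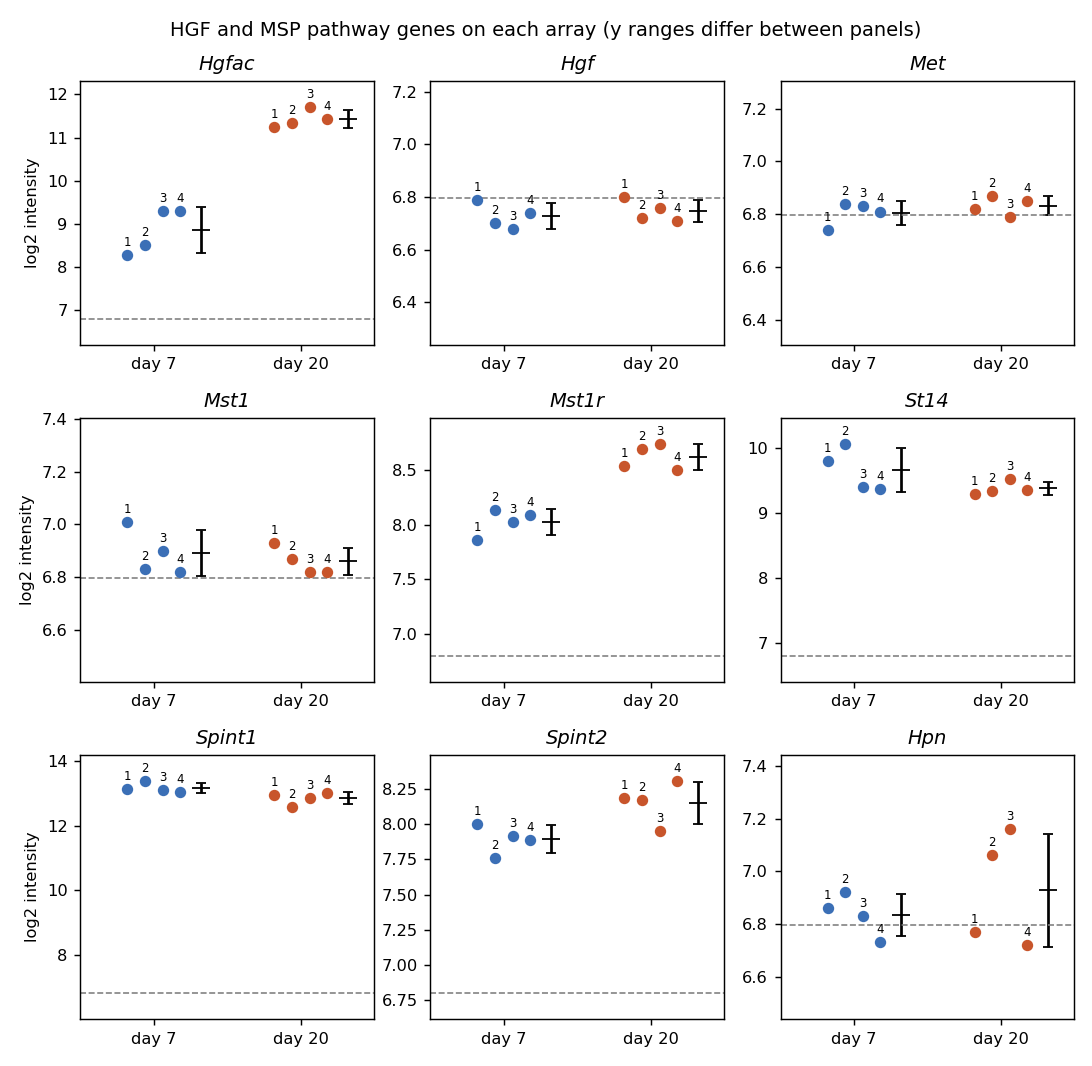
Log2 intensity of the 9 genes on each array, with day 7 in blue and day 20 in orange. Numbers are replicates, black bars are mean and SD (n = 4), the dashed line is the background limit of 6.796, and y ranges differ between panels; Hgfac and Mst1r are higher on every day 20 array, and Hgf and Met lie along the limit.

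Hepsin, the membrane-bound protease encoded by Hpn, was near background. Its values were 6.86, 6.92, 6.83 and 6.73 at day 7 and 6.77, 7.06, 7.16 and 6.72 at day 20. The groups overlapped, and the 2 day 20 arrays above the limit, replicates 2 and 3, were Xist-positive. The difference of 0.09 did not pass (limma adjusted p = 0.70; 95% confidence interval -0.15 to 0.34), and it was 0.275 among the 6 Xist-positive arrays (adjusted p = 0.141). A second Hpn probe split the day 20 arrays the same way, reading 6.95 (replicate 2), 7.04 (replicate 3), 6.73 (replicate 1) and 6.78 (replicate 4). The remaining Hpn probe was above the limit on no array.

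St14, encoding matriptase, the main membrane protease of this kind in gut epithelium, was well above background throughout. Its brightest probe read 9.80, 10.06, 9.39 and 9.37 at day 7 and 9.29, 9.34, 9.52 and 9.35 at day 20. Day 7 replicates 1 and 2 were the high arrays, and the other 6 lay between 9.29 and 9.52. The difference was -0.28 (SE 0.15, limma adjusted p = 0.36; 95% confidence interval -0.63 to 0.07), and it was -0.145 without day 7 replicate 2. The second probe of nearly equal brightness differed by 0.19 in the opposite direction, from 9.11 ± 0.10 to 9.30 ± 0.21 (SD, n = 4 each), and the remaining, dim probe by -0.10. With the probes averaged St14 stood at -0.06, so its direction depended on the probe.

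The 2 Kunitz inhibitor genes differed in opposite directions, and neither passed. Spint1 read 13.16, 13.40, 13.10 and 13.06 at day 7 and 12.97, 12.59, 12.88 and 13.01 at day 20. All day 20 values were lower than all day 7 values, though the closest were only 13.06 and 13.01. The difference was -0.32 (SE 0.11, limma adjusted p = 0.159; 95% confidence interval -0.57 to -0.06), and -0.445 among the 6 Xist-positive arrays (adjusted p = 0.143). Its other probe differed by -0.07 and its groups overlapped. Spint2 read 8.0, 7.76, 7.92 and 7.89 at day 7 and 8.19, 8.17, 7.95 and 8.31 at day 20. Day 20 replicate 3 fell within the day 7 range and the other 3 lay above it. The difference was 0.26 (SE 0.09, limma adjusted p = 0.142; 95% confidence interval 0.06 to 0.46) and 0.17 among the 6 Xist-positive arrays (adjusted p = 0.451). The other Spint2 probe was dim, at 6.77 ± 0.05 and 6.84 ± 0.10 (SD, n = 4 each).

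**Figure D2:**
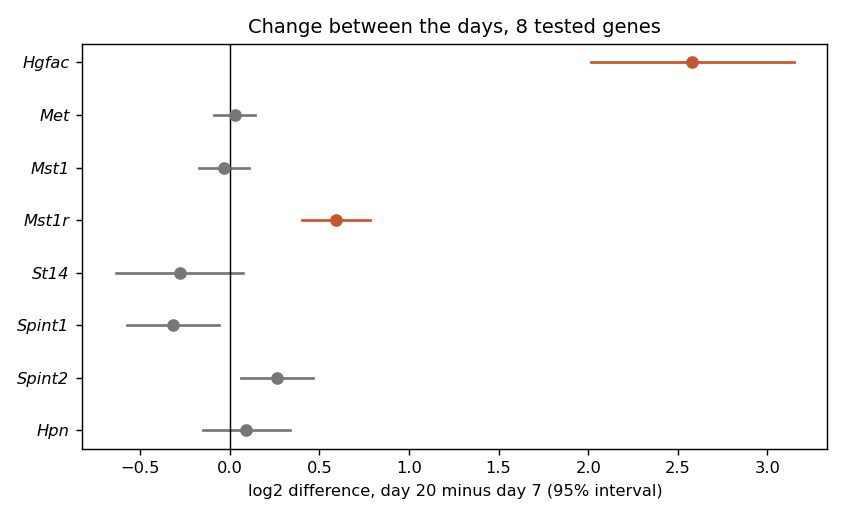
Log2 difference, day 20 minus day 7, of the 8 tested genes with its 95% confidence interval from the limma fit (n = 4 each day). Orange marks an adjusted p under 0.05; Hgfac at 2.58 and Mst1r at 0.59 are the 2 so marked, and the other 6 lie between -0.32 and 0.26.

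Among the ligands, Hgf was not tested, since its brightest probe was above the limit on 1 of 8 arrays. It read 6.79, 6.70, 6.68 and 6.74 at day 7 and 6.8, 6.72, 6.76 and 6.71 at day 20, all at background. Neither of the other 2 Hgf probes was above the limit on any array. Mst1 was only just above the limit, at 7.01, 6.83, 6.90 and 6.82 on day 7 and 6.93, 6.87, 6.82 and 6.82 on day 20. The groups overlapped and the difference was -0.03 (limma adjusted p = 0.843; 95% confidence interval -0.17 to 0.11). Both values were so near background that a change of either transcript could be compressed.

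Mst1r, encoding the MSP receptor RON, read 7.86, 8.13, 8.02 and 8.09 at day 7 and 8.54, 8.69, 8.74 and 8.50 at day 20. All 4 day 20 arrays lay above all day 7 arrays. The gene rose by 0.59 (SE 0.08, 95% confidence interval 0.40 to 0.78, limma adjusted p = 0.00697), with day means of 8.02 ± 0.12 and 8.62 ± 0.12 (SD, n = 4), and by 0.69 among the 6 Xist-positive arrays (adjusted p = 0.0179). Its second probe, annotated to the same transcript, gave a smaller difference of 0.18 with overlapping groups, from 7.33 ± 0.11 to 7.51 ± 0.15 (SD, n = 4 each). With both averaged the rise was 0.39 (limma adjusted p = 0.0364).

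Met, encoding the HGF receptor, has 1 probe here, which read 6.74, 6.84, 6.83 and 6.81 at day 7 and 6.82, 6.87, 6.79 and 6.85 at day 20. It was above the limit on 3 arrays of each day, and the groups overlapped. The difference was 0.03 (limma adjusted p = 0.819; 95% confidence interval -0.09 to 0.14), which bounds the signal of this probe rather than the transcript. The probe used for Epcam, a defining epithelial surface gene, was as dim, at 6.86 ± 0.07 and 6.89 ± 0.09 (SD, n = 4 each), beside bright epithelial genes such as Krt8 (13.75 and 13.85). Whether a probe responds to its transcript was not tested.

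**Figure D3:**
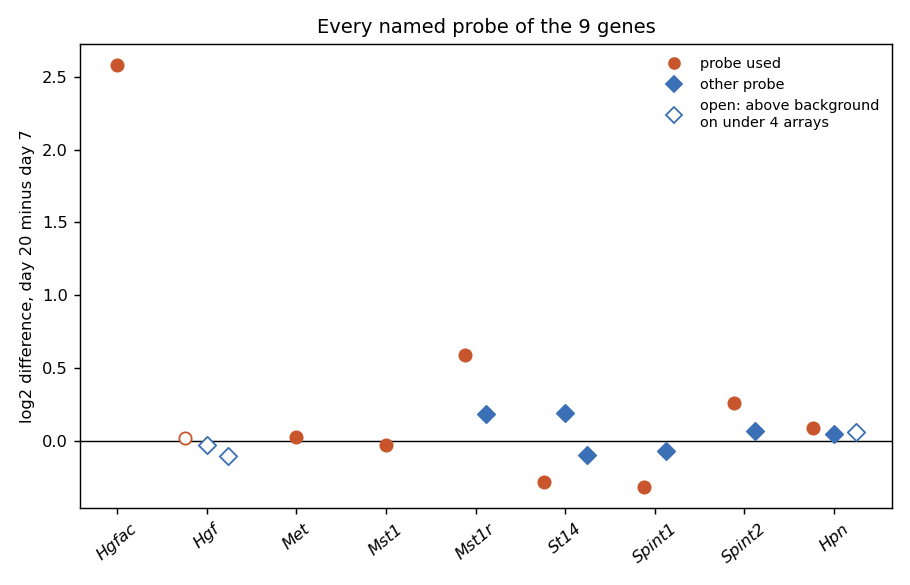
Log2 difference, day 20 minus day 7, of every named probe of the 9 genes. Orange circles are the probes used, blue diamonds the others, and open symbols were above background on under 4 arrays; the 2 Mst1r probes differ by 0.59 and 0.18, and those of St14 by -0.28, 0.19 and -0.10.

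Intestinal epithelial markers were mostly well above background, the exception being Epcam, whose probe lay near it (day means of 6.86 and 6.89). Of 12 intestinal epithelial markers all were tested and 11 were above the limit on every array. The test was passed by 2 (16.7%, against 4.85% of all genes tested). Summed linear intensity over the list was 39997 to 45536 at day 7 and 43215 to 50923 at day 20. Of these, Cdx1, an intestinal transcription factor, rose by 0.47 and Krt20, a keratin of differentiated cells, fell by 2.26 (limma adjusted p = 0.0328 and 0.0382). Cdx1 kept the call only when day 7 replicate 4 was the array left out, and Krt20 only without day 7 replicate 2 (adjusted p of 0.0516 to 0.0923 and 0.0568 to 0.095 without each of the others). Neither passed among the 6 Xist-positive arrays (0.164 for Cdx1 and 0.18 for Krt20). Elf3 was higher on every day 20 array than on any day 7 array without passing (0.815, limma adjusted p = 0.0783). Of all genes tested, 6.27% were higher on every day 20 array and 6.84% lower, which applies to the markers below too.

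Fibroblast and smooth muscle markers, of the cells that make HGF, were mostly at background. Of 15 markers 5 were tested, 2 (Vim and Acta2) were above the limit on every array and Col1a1 and Thy1 on none, and none passed the test. Vim, encoding the intermediate filament vimentin, was at 11.41 to 12.13 on day 7 and at 8.74, 11.05, 11.31 and 7.95 on day 20, low on the Xist-negative arrays (adjusted p = 0.162). Acta2, encoding smooth muscle actin, read 9.98, 8.99, 8.89 and 7.94 on day 7 and 7.07, 7.9, 7.17 and 7.03 on day 20, lower on every day 20 array (-1.66, adjusted p = 0.0545). The list had 1 lower call under the strict filter, with background subtracted and without day 7 replicate 4. Summed intensity over the list was 4382 to 6336 at day 7 and 1781 to 4105 at day 20. The part of these cells in the results was not tested.

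Since Hgfac and Hpn are known as liver genes, hepatocyte markers were read too. Of 10 markers 5 were tested and 4 (Alb, Apoh, Tat and Fgb) were above the limit on no array. Hgfac rose while 2 of the 5, Ambp and Ttr, both encoding secreted plasma proteins, fell by 1.69 and 1.09 (limma adjusted p = 0.000448 and 0.00225), against 2.33% of all genes tested that were lower. With background subtracted their differences were -3.22 and -2.48. Cps1, encoding a urea cycle enzyme, was lower on every day 20 array without passing (-1.615, adjusted p = 0.0548). The list had 3 lower calls under the strict filter, with probes averaged, with background subtracted and without day 20 replicate 3. Hnf4a was the brightest of the list, with day means of 10.64 and 10.81 (0.17, limma adjusted p = 0.656). Summed intensity over the list was 2939 to 4437 at day 7 and 2518 to 3108 at day 20. The gut epithelium also expresses Hnf4a and Cps1, so this sum is not a measure of hepatocytes. Endothelial markers gave no call in 5 tested of 10 (summed intensity 1316 to 1499 and 1619 to 1900). Among them Esam was higher on every day 20 array without passing (8.21 to 8.96 and 9.17 to 9.77, limma adjusted p = 0.0625). That list had 1 higher call with robust variance and a trend and with background subtracted. Of 8 leukocyte markers with a probe 4 were tested and 1, Laptm5, rose by 0.565 (limma adjusted p = 0.0424), against 2.51% of all genes tested that were higher. Without any 1 array other than day 20 replicate 1 its adjusted p was 0.0683 to 0.0984. Cd14, the brightest of the list, was higher on every day 20 array without passing (0.7425, limma adjusted p = 0.0599). The list had 2 higher calls with robust variance and a trend and with background subtracted, and 0 under cyclic loess and without the filter on dim probes. Ptprc, Lyz2 and Itgam were above the limit on no array (summed intensity 1174 to 1287 and 1384 to 1826). Their part in the results was not tested.

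Of 11 tested proteases among 18 others listed, 1 was higher and 0 lower (9.09%, against 4.85% of all genes tested, median log2 difference 0.01). Without day 7 replicate 2 and with background subtracted 1 was lower. The higher one was Tmprss2, a trypsin-like protease of the epithelial membrane, at 11.89, 11.61, 11.94 and 11.96 on day 7 and 12.41, 12.31, 12.60 and 12.41 on day 20. It rose by 0.58 (SE 0.10, limma adjusted p = 0.0145), and among the 6 Xist-positive arrays its difference of 0.605 had an adjusted p of 0.073. The plasma proteases Klkb1, F11 and F12, which can also activate HGF, were not tested, being at background. Plau, encoding urokinase, differed by -0.24 (adjusted p = 0.218), and Prss8, encoding prostasin, the partner of matriptase, by 0.015 (adjusted p = 0.976). This list and the pathway lists below were chosen with earlier results of these data known, so their shares of calls are descriptions.

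Protease inhibitors outside the Kunitz pair included 2 lower and 0 higher of 8 tested members (25%, against 4.85% of all genes tested, median -0.14). Serpinf2, encoding the plasmin inhibitor alpha-2-antiplasmin, fell by 0.84 (SE 0.09, limma adjusted p = 0.00199). Its day means were 7.61 ± 0.12 and 6.78 ± 0.13 (SD, n = 4), with 2 day 20 arrays above background. The difference was -2.24 with background subtracted and -0.54 with probes averaged, and passed in both. For Serpinf2 the 4 day 7 arrays alone met the filter on dim probes, as they did for Serping1 and for Snai2, named below. Serping1, encoding the C1 inhibitor, fell by 0.31 (limma adjusted p = 0.0382), with 2 day 20 arrays above background. Without any 1 array other than day 7 replicate 2 its adjusted p was 0.068 to 0.094, and among the 6 Xist-positive arrays it was 0.133. Serpina5, encoding the protein C inhibitor, which acts on HGF activator, stood near background with a difference of 0.035.

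Of 8 tested substrates and partners of matriptase 1 was higher (12.5%, against 4.85% of all genes tested, median 0.15). Scnn1a, the alpha subunit of the epithelial sodium channel, which proteases of this group can activate, rose by 0.41 (limma adjusted p = 0.042). That call was lost without any 1 array other than day 7 replicate 2 (adjusted p 0.0538 to 0.104) and among the 6 Xist-positive arrays (0.175).

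Genes of MET's partners at the membrane were higher in 3 and lower in 1 of 16 tested members (25%, against 4.85% of all genes tested, median 0.06). Gpc3, encoding the heparan sulfate proteoglycan glypican-3, rose by 1.18 (SE 0.20, limma adjusted p = 0.0158), with 6.89 to 7.11 at day 7 and 7.83 to 8.84 at day 20, a call lost when replicate number was a block (0.0536). Icam1, an adhesion molecule reported as a MET partner, rose by 0.68 (limma adjusted p = 0.0108). Plxnb2, a semaphorin receptor, rose by 0.48 (limma adjusted p = 0.0378). That call was lost without any 1 array other than day 7 replicate 2 (0.0516 to 0.093) and among the 6 Xist-positive arrays (0.179). Nrp1, encoding neuropilin-1, fell by 0.43 (limma adjusted p = 0.018), with an adjusted p of 0.0587 and 0.053 without day 7 replicates 1 and 3, 0.0758 with probes averaged and 0.0779 among the 6 Xist-positive arrays. The best known partner, Cd44, differed by 0.055 (adjusted p = 0.941).

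Of 27 tested adaptors and kinases of MET 1 was lower and 0 higher (3.7%, median -0.03), and of 21 tested negative regulators 0 passed (median -0.03), against 4.85% of all genes tested. Ptpn11, encoding the phosphatase SHP2 that binds the adaptor Gab1, fell by 0.42 (SE 0.09, limma adjusted p = 0.0328). It missed the threshold without any 1 of 6 arrays, the exceptions being day 7 replicate 2 and day 20 replicate 4 (0.0602 to 0.093), with probes averaged (-0.28, adjusted p = 0.284) and with background subtracted (0.106). Gab1 itself read 10.43, 10.10, 9.95 and 10.08 at day 7 and 9.77, 9.71, 9.92 and 9.53 at day 20 without passing (-0.41, adjusted p = 0.0973).

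Genes reported to respond to HGF went both ways: 2 of 25 tested were higher and 3 lower (20%, against 4.85% of all genes tested, median -0.005). Bhlhe40, a transcriptional repressor also known to be induced under low oxygen, rose by 1.24 (limma adjusted p = 0.0161), and the matrix protease gene Mmp7, above background on 3 day 7 arrays, rose by 0.83 (0.0164). Without day 7 replicate 1 these had adjusted p of 0.0533 and 0.0516. Jun fell by 0.96 (limma adjusted p = 0.0188), Ets1 by 0.55 (0.0241) and Snai2, with 1 day 20 array above background, fell by 0.555 (0.0455); all 3 encode transcription factors. Among the 6 Xist-positive arrays these 3 missed the threshold (0.117, 0.103 and 0.163), with differences of -0.835, -0.565 and -0.5525. Jun also missed it without day 7 replicate 1 (0.0618) or day 20 replicates 1 (0.0508) or 4 (0.0567), Ets1 without day 7 replicate 3 (0.0686) or day 20 replicates 2 (0.062), 3 (0.0521) or 4 (0.0657), and Snai2 without any 1 array other than day 7 replicate 1 (0.0669 to 0.112).

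**Figure D4:**
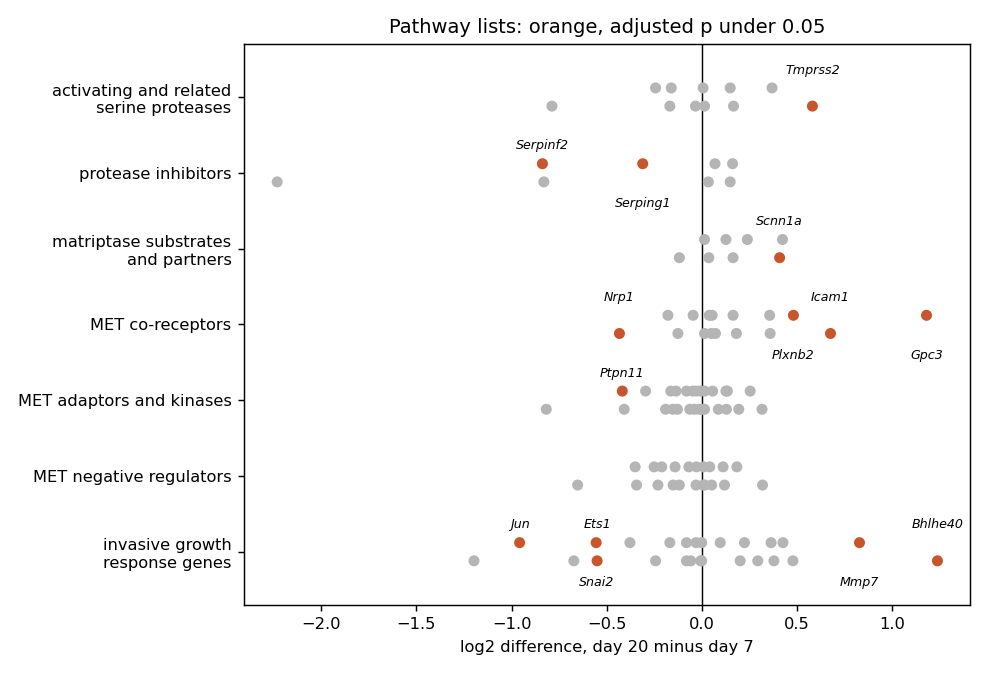
Log2 difference, day 20 minus day 7, of each tested gene in the 7 pathway lists, 1 row per list. Orange marks an adjusted p under 0.05, with the gene's name; such genes lie on both sides of 0, and none is marked among the negative regulators.

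Genes whose pattern over the 8 arrays was most like that of Hgfac were Pfkl, a subunit of the glycolytic enzyme phosphofructokinase (Pearson r = 0.9901), Fndc10 (0.9859), Pglyrp1, a secreted protein that binds bacterial peptidoglycan (0.9849), and Auh, an enzyme of leucine breakdown (0.9809). All 4 were higher on every day 20 array than on every day 7 array, and all 4 were lower on day 7 replicates 1 and 2 than on replicates 3 and 4, as Hgfac was. Pfkl rose by 1.67 and Pglyrp1 by 1.595. An r above 0.9 with Hgfac was found for 1.63% of the tested genes, and all points share the same 8 arrays, so this is a description.

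For Met the closest were Tenm1 (0.9612), Rnf170 (0.9476), Slc37a4 (0.9354) and Pank1 (0.9259), with differences between the days of 0.02 to 0.07, while the Met probe itself lay at the background limit. For Hpn they were Gadd45g, a stress-response gene (0.9766), Cryz (0.9715), Tiam2 (0.9635) and Gpc1, encoding glypican-1 (0.9612). Over the day 20 replicates 1 to 4, Gadd45g read 10.25, 11.28, 11.49 and 9.98 and Gpc1 read 9.18, 10.25, 10.75 and 8.57. Both were high on the Xist-positive day 20 arrays, as was Hpn.

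**Figure D5:**
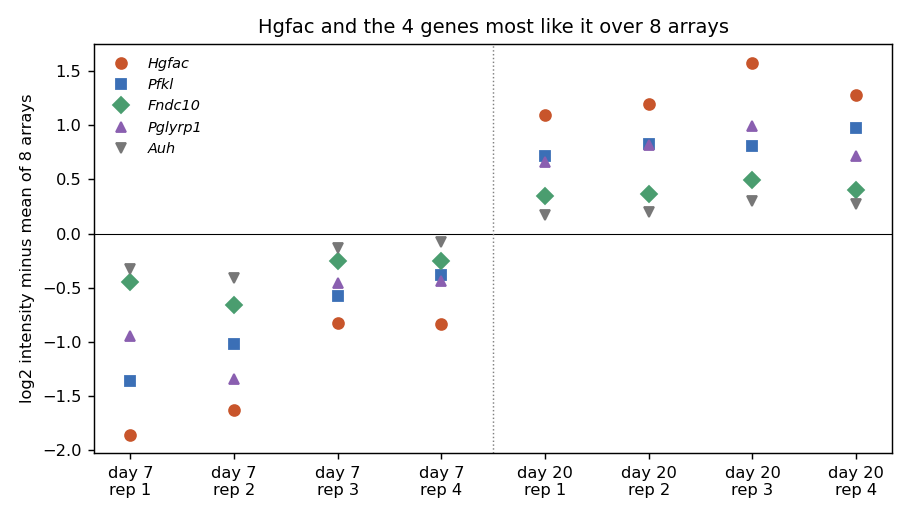
Log2 intensity minus the gene's own mean over 8 arrays, for Hgfac and the 4 genes most like it, by array. All 5 genes lie above 0 on the 4 day 20 arrays and below 0 on the 4 day 7 arrays, and lower on day 7 replicates 1 and 2 than on replicates 3 and 4.

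Among the members, Hgfac and Mst1r correlated at r = 0.952 over the 8 arrays and at 0.457 once each day's mean was removed, so most of their likeness was the difference between the days. Hgfac and St14 correlated at -0.678 over the 8 arrays and at -0.681 with the day means removed. The 2 day 7 arrays that were low for Hgfac, replicates 1 and 2, were those high for St14. At day 20 the genes ran the same way, both lowest on replicate 1 (11.24 and 9.29) and highest on replicate 3 (11.72 and 9.52). The negative value with the day means removed thus came from the day 7 arrays. Mst1r and Spint2, both higher on average at day 20, correlated at 0.545 over the arrays but at -0.858 within the days. These are descriptions over 8 arrays that share their normalization.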

How the data were processed

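The samples' total RNA was biotin-labelled for Illumina arrays, per the labels' protocols. Per the deposited table, the authors' values are log2 intensities of 45281 probes with nearly equal distributions (median 6.81). Their software and normalization: not given in the sources used here. A second table was set aside because its 16 per-sample columns match no sample label. The background limit of 6.796 was therefore set from the values (mode 6.7, SD below it 0.05837, one-sided tail 0.05).

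GEO's platform annotation gave 34885 probes 1 symbol, 18 several and 10378 none here. Of 19057 genes, 12466 exceeded the limit on 4 or more of 8 arrays. These were fitted with limma 3.58.1 (R 4.3.3; day 20 minus day 7, two-sided, Benjamini-Hochberg threshold 0.05), a step tested on simulated data. Arrays give no counts; 52.99% to 53.17% of probes exceeded the limit.

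Members, lists and motifs were chosen with earlier results of these data known. Named were the 9 members, up to 4 called genes per list, and the 4 genes most like Hgfac, Met and Hpn. Snai2 and list genes named without a call were added after their values were seen. Alternatives were a replicate block, cyclic loess, other filters (none, or a tail of 0.01), averaging of probes, robust variance with a trend, subtraction of the mode (offset 16), leaving out each array, and the Xist-positive arrays alone. Plots used matplotlib 3.10.9 (Python 3.11.15).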

Additional observations from a re-analysis of the deposited data

Results flagged for a closer look

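Serpinf2 read 7.44 on day 7 replicate 3, apart from the other 3 day 7 arrays at 7.66 to 7.68; the gap was 0.917 of the group's range. It was the 1 such array among 80 groups of 4 examined, of which chance alone marks about 5%. Its fall by day 20 passed in all 16 alternatives.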

How the results depend on the processing

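Hgfac and Mst1r passed in all 16 alternatives, with log2 differences of 2.39 to 2.86 and 0.39 to 0.82, and the other tested members passed in none of those in which they could be tested (Met was not, under the strict filter). With any 1 array left out Mst1 ranged from -0.0533 to 0.01, the latter without day 7 replicate 1, a reversed sign. The count of members higher was 2 and of members lower 0 in all 16.

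Over all genes, 604 changed, and 301 to 579 did with any 1 array left out (day 7 replicate 1 gave 301 and replicate 3 gave 349; day 20 replicate 2 gave 373 and replicate 4 gave 353). The 6 Xist-positive arrays gave 413, and higher genes made up 65.86% of calls against 51.82%. Replicate numbers are shared by the days, but same-numbered arrays deviated together only weakly (correlations of 0.119, 0.05, -0.01 and 0.142). Day 20 replicates 1 and 4 correlated best with their own number, and replicates 2 and 3 did not. With so few arrays these correlations cannot decide whether same-numbered arrays share an origin. By the brightest Xist probe, day 7 replicates 1 and 4 read 10.01 and 9.87, and day 20 replicates 1 and 4 read 6.68 and 6.74. A block by replicate number thus pairs Xist-positive with Xist-negative arrays for replicates 1 and 4. With replicate number as a block the count was 401. In that fit Hgfac had an adjusted p of 0.00368 and Mst1r of 0.0249, and Gpc3 (0.0536), Jun (0.0514), Serping1 (0.066), Scnn1a (0.0792), Snai2 (0.0909), Cdx1 (0.0527) and Laptm5 (0.116) missed the threshold.

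Signal over background limits Hgf, Met, Mst1 and Hpn, whose probes lay at or just above the limit. Subtracting background moved several dim genes by over 1.5 times, beside those given above: Gpc3 to 2.27, Mmp7 to 2.13, Icam1 to 1.13, Scnn1a to 1.03, Serping1 to -1.14, Nrp1 to -1.16, Ets1 to -1.27, Snai2 to -1.74 and Laptm5 to 1.24, all still called; Plxnb2 (adjusted p = 0.0619) and Cdx1 (0.064) were not. Without the filter on dim probes Scnn1a (0.0546), Plxnb2 (0.05), Krt20 (0.0615), Laptm5 (0.0615) and Snai2 (0.0653) missed the threshold, as did Laptm5 under cyclic loess (0.0533), and Plxnb2 (0.0528), Cdx1 (0.0512) and Krt20 (0.0654) with the robust trend.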

Other observations

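A digestive protease gene and a trypsin inhibitor gene were lower on every day 20 array than on any day 7 array (6.84% of all genes tested were), without passing the test. Tmprss15, encoding enteropeptidase, which activates trypsinogen in the gut lumen, read 7.25, 8.53, 7.21 and 7.07 at day 7 and 6.70, 6.71, 6.68 and 6.82 at day 20, with 1 day 20 array above background (limma adjusted p = 0.177). Its list of proteases had 0 lower calls, but 1 without day 7 replicate 2 and with background subtracted. Spink1, encoding a secreted trypsin inhibitor, read 10.16, 12.08, 9.55 and 8.96 at day 7 and 8.90, 6.83, 7.20 and 8.89 at day 20 (-2.23, limma adjusted p = 0.139). Day 7 replicate 2 was the highest array for both. Spink1 was higher on day 20 replicates 1 and 4, the Xist-negative arrays, than on replicates 2 and 3. These 2 genes were chosen after their values were seen.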
